A study of Mus musculus with 8 samples.

Results

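The 8 genes described here encode components of the complement system and the receptors for its anaphylatoxins. They were chosen by symbol in the deposited count table, where each of C3ar1, C5ar1, C1qa, C1qb, C1qc, C3, Cfp and Cfb has 1 row among 37310 genes. All 8 passed the filter on low counts, which left 14537 tested genes, and so all 8 enter every comparison below. Gene expression was measured by bulk RNA sequencing of mouse alveolar macrophages, which live in the airspaces of the lung and clear particles and surfactant, in 8 libraries of 4 groups. Each group had 2 libraries, and a pool of 3 mice is given for each library, also for the cultured exAM. Whether the libraries of a group came from separate experiments is not stated, so p-values measure only the spread between these libraries.

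All mice were wild type, and an age of 8 weeks is given for those from which cells were isolated for expansion and for the Ly5.1 mice used for transplantation. The recipients of tAM are not described separately in the labels. Expanded cells (exAM) were alveolar macrophages of C57BL/6 mice after 2 months of culture, and they were not sorted. Transplanted expanded cells (texAM) were expanded alveolar macrophages given into the trachea of C57Bl/6-Ly5.1 mice, a congenic strain with the CD45.1 allele. A recipient age of 2 months is given for texAM. The cells were recovered as SiglecF+ CD11c+ CD45.2+ cells of whole lung 4 months later. The tAM group consisted of transplanted C57BL/6 alveolar macrophages for which no expansion is named, recovered by the same sort, also after 4 months. HostAM were SiglecF+ CD11c+ CD45.1+ cells of C57Bl/6-Ly5.1 lungs, and the labels do not say whether these lungs had received cells or PBS. The 3 groups taken from lung are called lung groups below.

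Complement is a cascade of plasma and tissue proteins that tags particles for uptake. C1q, a complex of A, B and C chains, starts the classical pathway by binding antibody or altered surfaces, and tissue macrophages are among its main sources. All pathways meet at C3, whose cleavage releases the anaphylatoxin C3a, and C5 is cleaved later to release C5a. Factor B (Cfb) and properdin (Cfp) build and stabilise the alternative pathway enzyme that cleaves more C3. C3a is read by the receptor encoded by C3ar1, and C5a by those encoded by C5ar1 and C5ar2.

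Libraries held 6546272 to 9154128 counts. Levels are in CPM, counts per 1000000 counts of the library, with library sizes scaled by the trimmed mean of M-values (TMM), and a gene counts as called where edgeR's quasi-likelihood test gave a p under 0.05 after Benjamini-Hochberg adjustment across all tested genes. Of 13 alveolar macrophage markers in the table, none was at 0 in both libraries of a group. In exAM 6 of these markers were higher and 3 lower than in tAM. The 3 lower were Krt79, Cidec and Siglecf, the marker used in the sort of the lung groups. Group means in exAM and tAM were 1.73 and 199 CPM for Krt79, 4.57 and 273 CPM for Cidec, and 186 and 338 CPM for Siglecf. Some of the higher calls rested on the scaling to library size. Chil3 had 2135 and 2144 raw counts in exAM against 2177 and 2160 in tAM, and Plet1 had 3277 and 3182 against 3278 and 3170. Marco was higher in raw counts too, at 3034 and 3053 against 1867 and 1954, and so was Fabp4. Markers of other cells differed between exAM and the lung groups. The summed level of 18 lung epithelial markers was 573 to 923 CPM in the lung libraries and 392 to 438 CPM in exAM, where 9 of them, Sftpc and Cyp2f2 among them, were at 0. Of 17 of them tested, 15 were lower in exAM than in tAM and 1, the adhesion gene Cdh1, was higher at 422 and 375 CPM. Without Cdh1 the sum was 309 to 710 CPM in the lung libraries and 15.6 to 16.7 CPM in exAM. The summed level of 13 lymphocyte markers was 25.9 to 244 CPM in the lung libraries and 3.95 to 5.71 CPM in exAM, with Cd3e at 0. The summed level of 12 dendritic cell markers was 192 to 372 CPM in the lung libraries against 87.1 to 112 CPM in exAM, where Flt3 and Ccr7 were at 0. Of 11 of them tested, 6 were lower in exAM than in tAM and 1, Clec9a, was higher. Clec9a stood at 48.6 to 64.5 CPM in exAM and 18.4 to 34.9 CPM in the lung libraries. Without it the sum was 157 to 343 CPM in the lung libraries and 38.5 to 47.7 CPM in exAM. Neutrophil markers summed to 255 to 449 CPM in the lung libraries and 278 to 430 CPM in exAM, with the defining marker Ly6g at 0 in all groups. Of 6 of them tested, 2 (S100a8 and Cxcr2) were higher in exAM than in tAM and 2 (S100a9 and Csf3r) lower. Cxcr2 stood at 141 and 110 CPM in exAM against 33.9 and 66.2 CPM in tAM. Csf3r stood at 0.343 and 1.85 CPM against 80.4 and 81.9 CPM. The 12 stromal and endothelial markers summed to 248 to 334 CPM in the lung libraries and 271 to 290 CPM in exAM, most of it from Vwf. Without Vwf the sum was 6.73 to 21.6 CPM in the lung libraries and 62.6 to 71.8 CPM in exAM, and of 7 markers tested 4 were higher in exAM than in tAM and 0 lower. The endothelial cadherin gene Cdh5 had 167 and 115 counts in exAM and 0 in every lung library. Markers of mast cells, basophils and eosinophils summed to at most 2.17 CPM in any library. The exAM libraries also held 55 and 59 counts of the Y-linked gene Ddx3y against 0 in every lung library, so in all comparisons with exAM the sex of the mice and the culture cannot be told apart. As texAM too was at 0, its libraries cannot be taken as later samples of the sequenced exAM cultures. The part of sex and of the markers of other cells in the results below was not tested. In bulk samples fewer cells of a type and less RNA per cell cannot be told apart.

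The 8 genes were called in comparisons with the cultured cells and, with the main settings, in none among the lung groups. Between exAM and tAM, C3ar1 was higher in exAM and the other 7 genes were lower, so that 8 of 8 were called. Over all tested genes 44.7% were called in this comparison, 21.5% higher and 23.2% lower. The median log2 fold change of the 8 genes was -2.27, against -0.09 for all tested genes. It was also -2.27 with C1qa, which had no count in exAM, set to its bound. With libraries scaled by their totals alone the median of all genes was -0.29, and 34.5% rather than 48.0% of all calls were higher, while the 8 genes kept their directions and calls. Against HostAM, exAM gave the same division, 1 gene higher and 7 lower, with 20.9% of all tested genes called higher and 23.3% lower (44.1% in all) and a median of -1.75.

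**Figure D1:**
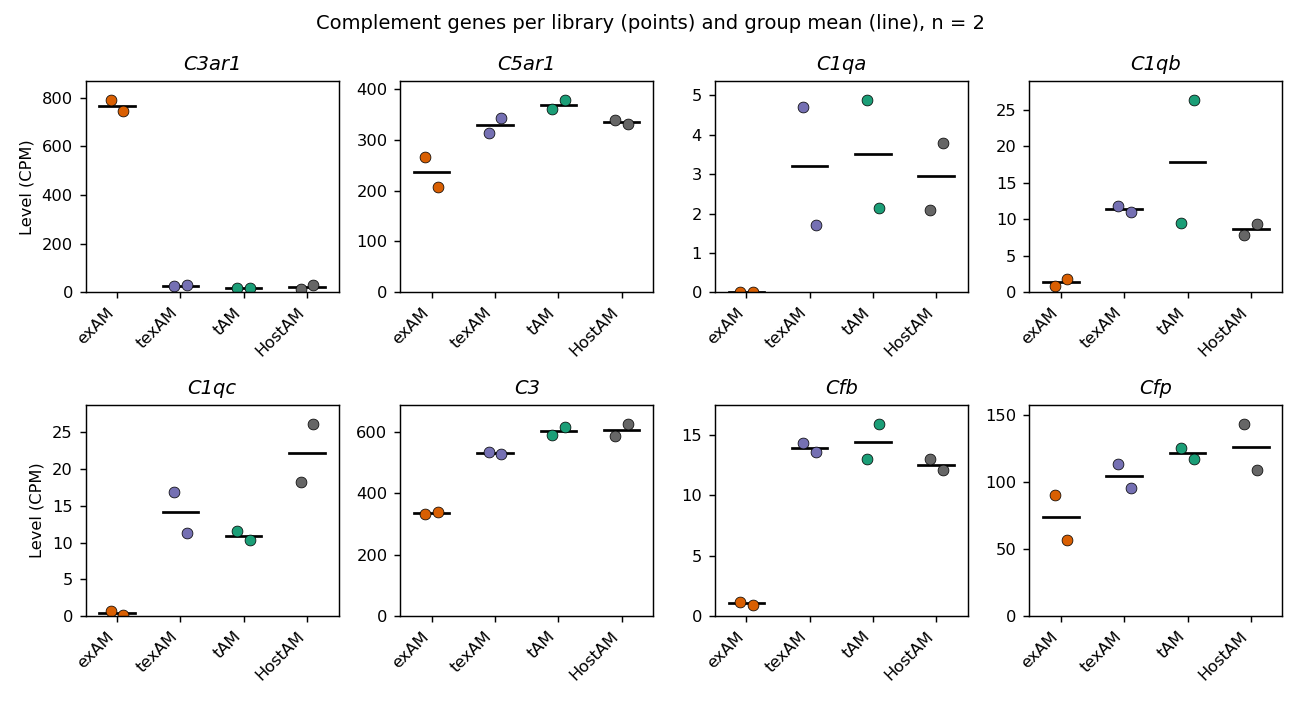
Level of each of the 8 complement genes in CPM (vertical axes, each from 0) in the 2 libraries (points) of the 4 groups (horizontal axes), with the group mean as a line. C3ar1 stood at 745 to 790 CPM in exAM and at most 30.4 CPM in any lung library, while each of the other genes was lower in both exAM libraries than in every lung library.

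C3ar1 encodes the receptor for C3a (ENSMUSG00000040552, chromosome 6, 122847138 to 122856161 on the minus strand of GRCm38, 4305 bases of exon). The exAM libraries stood at 790 and 745 CPM. In texAM the level was 26.1 and 29.4 CPM, in tAM 16.7 and 16.7 CPM, and in HostAM 13.6 and 30.4 CPM. Every lung library was thus far below both cultured libraries, whereas the lung groups overlapped in part, because the HostAM pair spanned the values of the other two. The rise of exAM over tAM was 45.9-fold (log2 5.52 ± 0.29 SE, edgeR adjusted p = 3.9e-07), and that over HostAM was 35.0-fold (log2 5.13 ± 0.28 SE, edgeR adjusted p = 5.58e-07). Without HostAM replicate 2 the latter was 5.83 on the log2 scale. C3ar1 was lower in texAM than in exAM by 4.79 on the log2 scale (± 0.27 SE, edgeR adjusted p = 7.99e-07). All 3 comparisons share the exAM libraries.

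The exAM libraries held 4607 and 4824 C3ar1 counts, or 1.07 and 1.12 counts per base of exon, against 0.0286 to 0.0613 in the lung libraries. For genes at such a mean density over all 8 libraries, counts in this table hardly followed library size. C3ar1, dense in exAM only, was not among these genes. Among 101 genes with a mean over 1 count per base, and at least 20 counts in every library, the median ratio of counts between the larger and the smaller library of a group was 0.999 to 1.02. The ratio of the library totals was 1.05 to 1.09. Whether the fold change of C3ar1 is affected was not tested.

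Among the lung groups C3ar1 was not called. Its level was 27.8 ± 2.35 CPM in texAM and 16.7 ± 0.0264 CPM in tAM (SD, n = 2 each), with both texAM libraries above both tAM libraries. The difference of 0.73 on the log2 scale (95% interval 0.11 to 1.35) was not called by edgeR (adjusted p = 0.587). With all genes kept, whatever their counts, it was called (edgeR adjusted p = 0.000437, while the alternatives spanned 0.000437 to 1), a setting that also raised the number of all genes called between texAM and tAM from 1 to 198 higher and 40 lower. Against HostAM the difference of texAM was 0.34 (95% interval -0.26 to 0.94, edgeR adjusted p = 0.653). Without HostAM replicate 2 it was called at 1.02 (edgeR adjusted p = 0.0288), and without HostAM replicate 1 it was -0.13, so its sign depended on 1 library.

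The sequence just upstream of the C3ar1 start is shown because this was the 1 gene of the 8 that was higher in exAM, and those of 2 C1q genes because these were lower together. Of the 8 genes, C3ar1, C5ar1, C1qb, C1qc, C3 and Cfp matched by symbol in the RefSeq promoter table of GRCm38.p6, and C1qa and Cfb did not. The stretches are on the minus strand, written 5′ to 3′, and end where a transcript of RefSeq or GENCODE M21 begins. They lie at chr6:122856162-122856407 for C3ar1, chr4:136886201-136886450 for C1qb and chr4:136893066-136893164 for C1qc. Capitals mark GAGGAA, the core recognised by the macrophage factor PU.1, TGCTGA, the shared core of sites for MAF factors, and TGACTCA, the AP-1 site, on either strand.
C3ar1: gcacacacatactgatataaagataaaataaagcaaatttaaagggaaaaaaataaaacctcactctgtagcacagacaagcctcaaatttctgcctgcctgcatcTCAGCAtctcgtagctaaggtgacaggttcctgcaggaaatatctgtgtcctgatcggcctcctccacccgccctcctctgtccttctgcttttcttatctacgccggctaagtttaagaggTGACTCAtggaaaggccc
C1qb: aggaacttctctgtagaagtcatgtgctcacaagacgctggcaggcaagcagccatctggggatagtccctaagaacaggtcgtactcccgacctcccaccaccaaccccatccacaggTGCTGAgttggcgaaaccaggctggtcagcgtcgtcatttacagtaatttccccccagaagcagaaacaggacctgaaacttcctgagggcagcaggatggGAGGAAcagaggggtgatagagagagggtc
C1qc: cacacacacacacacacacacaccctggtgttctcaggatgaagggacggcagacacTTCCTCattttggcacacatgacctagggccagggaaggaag

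In the 250 bases before the RefSeq start, the AP-1 sequence began 22 bases upstream in C3ar1 and was in none of the other 5 matched genes. It was looked for after the sequence had been read. Among 32851 promoter windows of that length 4.46% held it. The PU.1 core was found in C1qb and C1qc, and 23.3% of windows held it. The MAF core was found in C3ar1, C5ar1, C1qb and C3, and 16.1% of windows held it. None of the 3 motifs was found in Cfp. These matches describe the letters in this window only.

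C5ar1 encodes the main receptor for C5a (ENSMUSG00000049130, chromosome 7, 16246743 to 16259540, minus strand, 2570 bases of exon). Its level was 266 and 207 CPM in exAM, 314 and 342 CPM in texAM, 361 and 378 CPM in tAM, and 339 and 330 CPM in HostAM. Both exAM libraries were below all 6 lung libraries, and the lung libraries lay within a 1.20-fold range. C5ar1 in exAM was 1.56-fold lower than in tAM (log2 -0.64 ± 0.12 SE, edgeR adjusted p = 0.00137) and 1.41-fold lower than in HostAM (edgeR adjusted p = 0.00583). The raw counts of the lung libraries, 2869 to 3107 or 1.12 to 1.21 counts per base, were in the range in which counts hardly followed library size. Those of exAM, 1553 and 1341, or 0.604 and 0.522 counts per base, were in the range of 0.5 to 1 counts per base, where counts followed library size in part. There the median count ratio of the 2 libraries of a group was 1.02 to 1.04, at library size ratios of 1.04 to 1.09. Both ranges were set by a gene's mean density over all 8 libraries, not by its density in 1 group. C5ar1 was 1.39-fold higher in texAM than in exAM (log2 0.47 ± 0.12 SE, edgeR adjusted p = 0.00799). This call was lost without texAM replicate 2 (adjusted p = 0.064) and without exAM replicate 2 (adjusted p = 0.0705).

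The order of the 2 receptors was reversed in exAM. Per kb of exon, the C3ar1 level was 0.0239 to 0.0549 times that of C5ar1 in the 6 lung libraries, and 1.77 and 2.15 times in exAM replicates 1 and 2. C5ar2, which encodes the second C5a receptor, differed in the same direction as C5ar1, with 48.9 ± 1.21 CPM in exAM against 125 ± 23.4 CPM in tAM (SD, n = 2 each), 2.56-fold lower (edgeR adjusted p = 0.000331). In texAM C5ar2 stood at 111 ± 13.2 CPM, 2.27-fold above exAM (edgeR adjusted p = 0.000791).

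**Figure D2:**
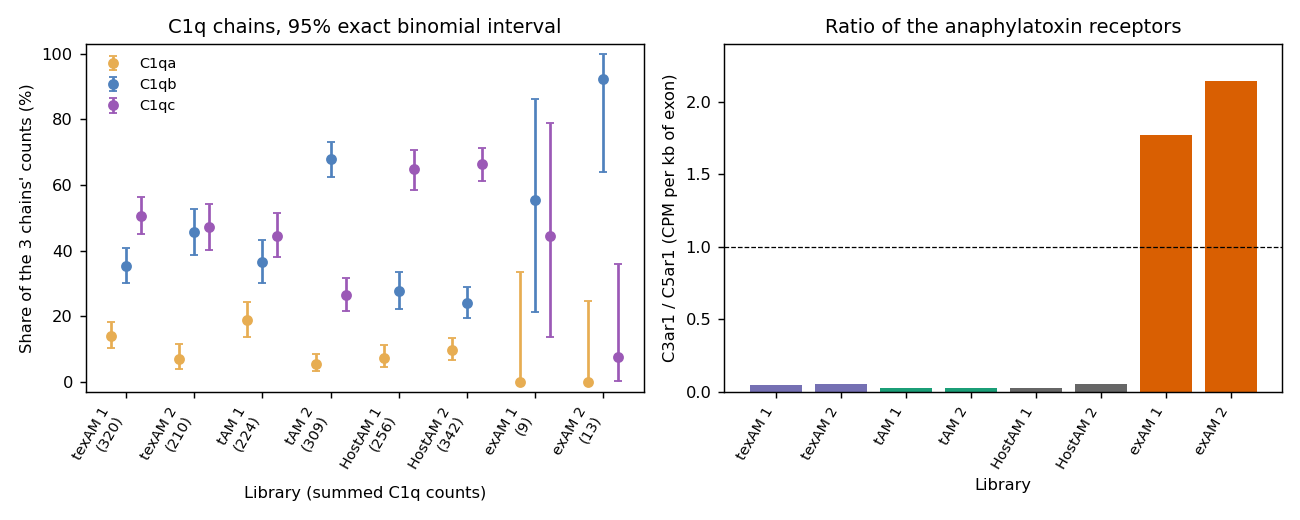
Left, share of each C1q chain in the summed counts of C1qa, C1qb and C1qc (vertical axis, percent) for each library (horizontal axis, summed counts in brackets), with exact 95% binomial intervals. Right, ratio of C3ar1 to C5ar1 in CPM per kb of exon for each library; the dashed line marks equal levels, which the exAM libraries exceeded at 1.77 and 2.15.

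The 3 chains of C1q lie side by side on the minus strand of chromosome 4, C1qb (ENSMUSG00000036905) at 136880129 to 136886187, C1qc (ENSMUSG00000036896) at 136889804 to 136893065 and C1qa (ENSMUSG00000036887) at 136895917 to 136898803. Their summed level was 24.0 to 39.4 CPM in the 6 lung libraries and 1.54 and 2.01 CPM in exAM, where the sums rested on 9 and 13 counts. No exAM library overlapped any lung library in a chain.

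C1qa, the A chain, had 0 counts in both exAM libraries, which allows up to 3 counts over the group. Its lung libraries held 42 and 17 counts in tAM, 45 and 15 in texAM, and 19 and 33 in HostAM, or 1.71 to 4.88 CPM. Computed against 3 counts over the exAM group, C1qa was at least 14.6-fold lower than in tAM and at least 12.0-fold lower than in HostAM (edgeR adjusted p = 0.00348 and 0.00444). In texAM it was at least 13.4-fold higher than in exAM (edgeR adjusted p = 0.00397). The bound against tAM was 8.74 without tAM replicate 1, that of texAM was 7.02 without texAM replicate 1, and that against HostAM was 8.59 without HostAM replicate 2. The bounds cover counting error only, and at these counts the level of C1qa within exAM was not measurable.

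C1qb, the B chain, stood at 0.858 and 1.85 CPM in exAM, 11.8 and 11.0 CPM in texAM, 9.52 and 26.3 CPM in tAM, and 7.83 and 9.44 CPM in HostAM. The second tAM library was thus well above the other 5 lung libraries, which were close together. In exAM C1qb was lower than in tAM by 3.69 on the log2 scale (± 0.60 SE, edgeR adjusted p = 0.000683) and lower than in HostAM by 2.64 (± 0.60 SE, edgeR adjusted p = 0.00499). The first value was -2.78 without tAM replicate 2 and -4.35 without exAM replicate 2, and the second was -3.30 without exAM replicate 2. In texAM the gene was 8.22-fold higher than in exAM (log2 3.04 ± 0.59 SE, edgeR adjusted p = 0.00225), and 3.68 on the log2 scale without exAM replicate 2.

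C1qc, the C chain, stood at 0.686 and 0.154 CPM in exAM, 16.9 and 11.3 CPM in texAM, 11.6 and 10.3 CPM in tAM, and 18.3 and 26.1 CPM in HostAM. Both HostAM libraries were above the other lung libraries. The exAM libraries held 4 and 1 counts, so the size of its change was imprecise. It was 25.9-fold lower than in tAM (counting interval of the summed counts 11.4 to 84.2, edgeR adjusted p = 0.000128) and 52.4-fold lower than in HostAM (counting interval 23.1 to 169, edgeR adjusted p = 3.38e-05). In texAM it was 33.3-fold higher than in exAM (counting interval 14.8 to 109, edgeR adjusted p = 7.92e-05). On the log2 scale these 3 values were -6.00, -7.03 and 6.36 without exAM replicate 1 and -3.95, -4.98 and 4.31 without exAM replicate 2.

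The chains kept no constant proportion among the lung libraries. C1qb made up 68.0% of the C1q counts in tAM replicate 2 (exact 95% binomial interval 62.4 to 73.1) but 36.6% in tAM replicate 1 (30.3 to 43.3). In HostAM the share was 27.7% (22.3 to 33.7) and 24.0% (19.6 to 28.9), and in texAM 35.3% (30.1 to 40.8) and 45.7% (38.8 to 52.7). C1qc took 64.8% and 66.4% in HostAM, 50.6% and 47.1% in texAM, and 44.6% and 26.5% in tAM. The tAM libraries differed from each other by more than counting error, and both HostAM libraries had a larger share of C1qc than any transplanted library. Reads were amplified without a stated molecular identifier, so these intervals cover counting error only. Between tAM and HostAM, C1qb differed by 1.05 on the log2 scale (95% interval -0.04 to 2.14) and C1qc by -1.02 (95% interval -1.89 to -0.15), and edgeR called neither (adjusted p = 0.516 and 0.411).

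Markers of other macrophages and monocytes differed in both directions. Of 18 tested markers 7 were higher and 6 lower in exAM than in tAM, and the summed level of the 20 markers in the table was 2278 to 2416 CPM in the lung libraries and 3235 to 3581 CPM in exAM. Mrc1 was the largest part in exAM, yet its raw counts were 8143 and 7706 in exAM and 8596 and 8223 in tAM. Without Mrc1 the sum was 1313 to 1385 CPM in the lung libraries and 2045 to 2185 CPM in exAM. Cx3cr1, the fractalkine receptor of monocytes and interstitial macrophages, had 15 and 52 counts in tAM, 69 and 44 in texAM, 35 and 72 in HostAM, and 0 and 2 in exAM. Cd163, F13a1 and Plac8 were at 0 in exAM. Their part in the C1q result was not tested.

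C3, the central component (ENSMUSG00000024164, chromosome 17, 57203970 to 57228136, minus strand, 5143 bases of exon), had the highest level per kb among the 6 component genes in every group. It stood at 331 and 339 CPM in exAM, 534 and 528 CPM in texAM, 589 and 614 CPM in tAM, and 584 and 625 CPM in HostAM. Per kb of exon this was 117 CPM in tAM, against 69.9 CPM for Cfp, 16.5 CPM for C1qb, 5.67 CPM for C1qc, 5.12 CPM for Cfb and 3.37 CPM for C1qa. Both exAM libraries were below all lung libraries, and both texAM libraries were below the tAM and HostAM libraries. C3 in exAM was 1.80-fold lower than in tAM (log2 -0.84 ± 0.08 SE, edgeR adjusted p = 1.4e-05), equally 1.80-fold lower than in HostAM (edgeR adjusted p = 1.4e-05), and 1.58-fold higher in texAM than in exAM (edgeR adjusted p = 7.51e-05). The lung libraries held 0.899 to 1.06 C3 counts per base, against 0.375 and 0.427 in exAM, so that they too were near the density at which counts hardly followed library size.

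Cfb encodes factor B (ENSMUSG00000090231, chromosome 17, 34856374 to 34862518, minus strand, 2825 bases of exon). It stood at 1.20 and 0.926 CPM in exAM, 14.3 and 13.6 CPM in texAM, 13 and 15.9 CPM in tAM, and 13.01 and 12.1 CPM in HostAM. The lung libraries lay within a 1.32-fold range, and exAM held only 7 and 6 counts. Cfb was 13.5-fold lower in exAM than in tAM (counting interval 7.82 to 26.0, edgeR adjusted p = 5.6e-05), 11.7-fold lower than in HostAM (edgeR adjusted p = 8.37e-05), and higher in texAM than in exAM by 3.70 on the log2 scale (edgeR adjusted p = 6.56e-05). In GENCODE M21 the read-through gene Gm20547 shares 2246 bases, or 79.5%, of the Cfb exons on the same strand. It was listed with 0 to 1 counts, and how reads in shared exons were counted is not given in the sources used here, so the level of Cfb relative to other genes is uncertain. Per kb of exon C3 exceeded Cfb 20.5- to 28.4-fold in the lung libraries and 151- and 201-fold in exAM.

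Cfp encodes properdin, which stabilises the C3 convertase (ENSMUSG00000001128, chromosome X, 20925454 to 20931555, minus strand, 1736 bases of exon). It stood at 90.6 and 56.8 CPM in exAM, 113 and 95.4 CPM in texAM, 126 and 117 CPM in tAM, and 143 and 109 CPM in HostAM. The exAM libraries were again the lowest, but the higher of them lay just under the lowest lung library. Cfp was 1.65-fold lower in exAM than in tAM (log2 -0.72 ± 0.21 SE, edgeR adjusted p = 0.0198) and 1.71-fold lower than in HostAM (edgeR adjusted p = 0.0142). The call against tAM was lost without tAM replicate 1 (adjusted p = 0.0837), tAM replicate 2 (0.0527) or exAM replicate 2 (0.15), and that against HostAM without HostAM replicate 1 (0.0892) or exAM replicate 2 (0.108).

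In texAM, recovered 4 months after transfer, 7 of the 8 genes were called against exAM, each on the side of the other lung groups. Of these, 6 genes were higher in texAM than in exAM and C3ar1 was lower. Over all tested genes 23.2% were called higher and 20.5% lower (43.7% in all). The median log2 fold change was 1.85 for the 8 genes and 0.11 for all. Given the Ddx3y counts above, these differences cannot be read as changes of the same cells over time. Cfp was 1.42-fold higher in texAM and was not called by edgeR (adjusted p = 0.0805). It was called without exAM replicate 1 (adjusted p = 0.0124), with the replicate number as a block (adjusted p = 0.0274) and under 3 other settings, in a range of 0.00613 to 0.528. Because this comparison and those of exAM with tAM share the exAM libraries, opposite signs in them are not separate results.

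**Figure D3:**
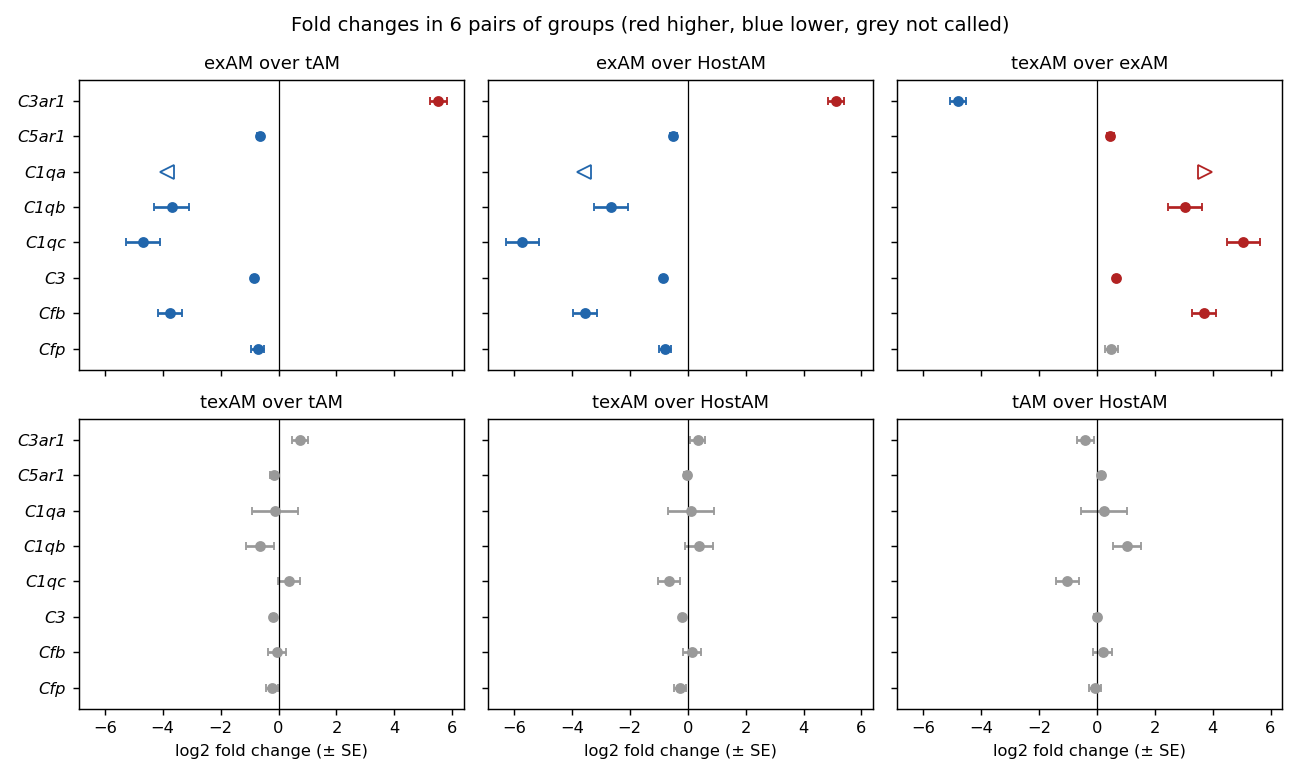
Log2 fold change with its standard error (horizontal axes) of the 8 complement genes (vertical axes) in the 6 pairs of groups, n = 2 libraries per group. Open triangles give the bound for C1qa, which had 0 counts in exAM; all comparisons among lung groups (lower row) were uncalled and lay between -1.02 and 1.05.

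Among the lung groups no complement gene of the 8 was called. Between texAM and tAM edgeR called 0 of 8, 2 had an unadjusted p under 0.05 (C3ar1 and C3), and DESeq2 called 0. Over all tested genes 0.00688% were called, that is 1 gene. The interval for C3 was -0.35 to -0.01, that for C5ar1 -0.42 to 0.08 and that for Cfb -0.77 to 0.66 on the log2 scale, while the intervals for C1qa (-1.91 to 1.66), C1qb (-1.73 to 0.42) and C1qc (-0.50 to 1.23) left room for changes of over 2-fold. Between texAM and HostAM edgeR called 0 of 8 (0.33% of all tested genes were called, 0.248% higher and 0.0825% lower), C3 alone had an unadjusted p under 0.05, and DESeq2 called 0. Between tAM and HostAM edgeR called 0 of 8 (0.0413% of all tested genes), C1qc alone had an unadjusted p under 0.05, and DESeq2 called 0. With 2 libraries a group these data do not show that the lung groups had equal levels.

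For C3ar1 exAM was the highest group and for the other 7 genes the lowest. For each gene the exAM libraries did not overlap those of the next group. How many of all tested genes had such a gap, here or among the lung groups, was not counted. The gaps are therefore not shown to be particular to these genes. Among the lung groups some neighbours in the order overlapped and others did not, and none of these differences was called. For C3ar1 and C1qa all neighbouring lung groups overlapped, with C1qa at means of 3.50 CPM in tAM, 3.21 CPM in texAM and 2.95 CPM in HostAM. For C5ar1 both tAM libraries were above both of HostAM. For C1qb texAM was above HostAM, and for C1qc HostAM was above texAM. For C3 and Cfp tAM was above texAM, with Cfp at means of 126 CPM in HostAM, 121 CPM in tAM and 104 CPM in texAM. For Cfb texAM was above HostAM, at means of 13.9 CPM and 12.5 CPM, with tAM at 14.5 CPM.

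The remaining complement genes were divided by role. Of 53 listed, 52 were in the table and 24 passed the filter. In exAM 10 of these 24 were higher and 3 lower than in tAM, with a median log2 fold change of 0.20. Over all tested genes 21.5% were higher and 23.2% lower in that comparison, with a median of -0.09. Against HostAM the 24 had 9 called higher, 3 called lower and a median of 0.40, while of all tested genes 20.9% were higher and 23.3% lower at a median of -0.08. Among the receptors, Itgam, the alpha chain of complement receptor CR3 that binds cleaved C3, stood at 1127 and 822 CPM in exAM against 47.0 and 47.8 CPM in tAM, 20.6-fold higher (edgeR adjusted p = 1.95e-07). Cd93, a myeloid surface protein first described as a C1q receptor, stood at 661 and 1016 CPM against 64.3 and 56.8 CPM, 13.8-fold higher (edgeR adjusted p = 3.44e-07). Itgax, the alpha chain of CR4, did not differ detectably, at 735 ± 125 CPM against 706 ± 39.2 CPM (SD, n = 2 each, edgeR adjusted p = 0.69).

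Other receptor calls were small. Itgb2, the beta chain that CR3 and CR4 share, was 1.40-fold higher in exAM than in tAM (edgeR adjusted p = 0.000973), yet its raw counts were 4748 and 4622 in exAM and 4401 to 4814 in the lung libraries, at 1.44 to 1.58 counts per base, so the call rested on the scaling to library size. Calr, the chaperone calreticulin, had 2805 and 2692 counts against 2778 to 2995. It was called higher (edgeR adjusted p = 0.00599), and its call was lost when libraries were scaled by their totals alone (adjusted p = 0.0871) and without tAM replicate 1 (adjusted p = 0.0525). C1qbp, a mitochondrial protein that also binds C1q, was 1.81-fold higher (edgeR adjusted p = 0.000745).

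Among the starters of the classical and lectin pathways the calls went both ways. Fcna, which encodes ficolin A, had 144 and 91 counts in exAM and 0 to 11 counts in the lung libraries, 25.9-fold higher than in tAM (counting interval 14.8 to 51.8, edgeR adjusted p = 0.00725, and 0.0603 without exAM replicate 1). Colec12, a membrane collectin and scavenger receptor, was 8.01-fold higher, at 318 ± 132 CPM against 39.7 ± 5.59 CPM (SD, n = 2 each, edgeR adjusted p = 1.41e-05). C4b, which encodes complement C4, had 0 counts in exAM and 29 to 101 counts in the lung libraries, at least 28.4-fold lower than in tAM (edgeR adjusted p = 0.000163). Its near-identical neighbour C4a, with 0 counts against 1 to 38, was called lower than in tAM (edgeR adjusted p = 0.0476) and lost the call without tAM replicate 1 or 2, texAM replicate 2 or exAM replicate 1 or 2 (adjusted p of 0.0708 to 0.165) and with a replicate block (adjusted p = 0.0667). The division of reads between the pair is uncertain. C2, the protease partner of C4, had 20 and 7 counts in exAM and 6 to 27 in the lung libraries and was not called.

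Inhibitors on the cell surface were higher in exAM than in tAM or were not called. Cd59a, which blocks the membrane attack complex, had 260 and 131 counts in exAM and 0 to 17 in the lung libraries, 44.5-fold higher than in tAM (counting interval 24.9 to 85.7, edgeR adjusted p = 0.00314). Its paralogue Cd59b, with 19 and 34 counts in exAM and 2 counts over the tAM group, was higher by a ratio of 35.7 (counting interval 9.41 to 303, edgeR adjusted p = 0.019). The decay-accelerating gene Cd55 was higher at 5.84 ± 0.256 CPM against 1.57 ± 0.256 CPM (SD, n = 2 each, edgeR adjusted p = 0.0465). The call of Cd55 was lost without any of the 4 libraries compared or either texAM library (adjusted p of 0.0507 to 0.165), with library totals (0.0691), with a replicate block (0.0573) and by DESeq2 (0.0503), and that of Cd59b without tAM replicate 2 or either exAM library (0.0752 to 0.144). Cr1l, the rodent regulator Crry, was the most abundant of this list in the lung at 67.7 to 84.8 CPM per group and was 86.9 ± 6.57 CPM in exAM (SD, n = 2, edgeR adjusted p = 0.0849 against tAM). Neither of the 2 soluble regulators tested was called. Among the terminal components, Hc, which encodes C5, had 0 counts in exAM and 0 to 61 in the lung libraries. Hc was called lower against HostAM, at least 17.6-fold (edgeR adjusted p = 0.0328), a call lost without HostAM replicate 2 or either exAM library (adjusted p of 0.10 to 0.122). HostAM replicate 2 held 61 of the 76 counts, and without it the bound was at least 6.78-fold. Hc was not called against tAM (edgeR adjusted p = 0.0756), but was called there without tAM replicate 2 (0.0206), by DESeq2 (0.0141) and on unfiltered genes (0.000337).

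**Figure D4:**
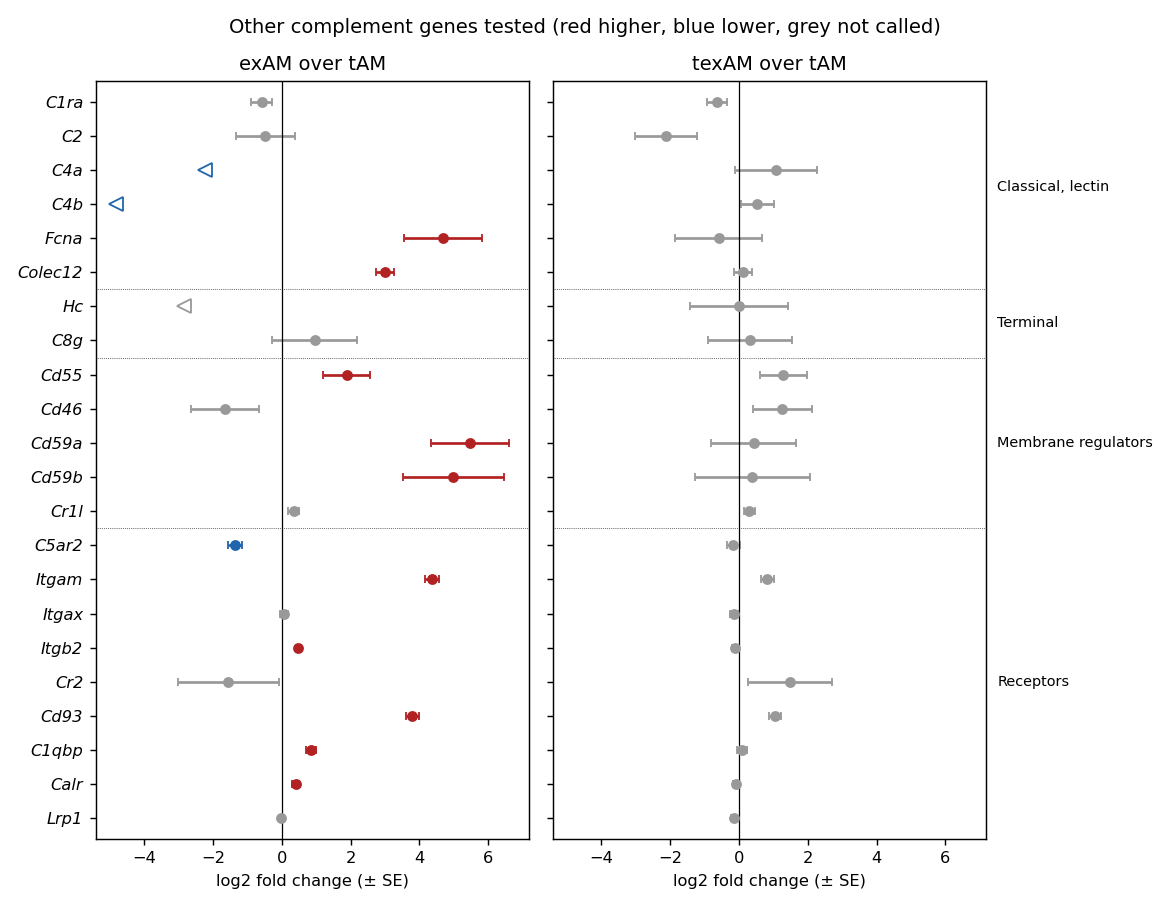
Log2 fold change with its standard error (horizontal axes) of the other complement genes tested (vertical axis, grouped by role, soluble regulators not plotted), exAM over tAM at left and texAM over tAM at right, n = 2 libraries per group. Open triangles are bounds for genes with 0 counts in exAM; 10 genes were higher and 3 lower at left and none was called at right.

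From exAM to texAM 4 of the 24 genes rose and 9 fell, with a median of -0.35, against 23.2% of all tested genes higher, 20.5% lower and a median of 0.11. Itgam fell to 84.0 ± 21.3 CPM and Cd93 to 125 ± 10.9 CPM (SD, n = 2 each), while C4b rose from 0 counts to 10.1 ± 0.681 CPM, at least 41.4-fold higher (edgeR adjusted p = 0.000104). The inhibitor Cd46 was called higher in texAM on 42 and 17 counts against 3 and 2 (edgeR adjusted p = 0.0339), and this call was lost without any of the 4 libraries compared (adjusted p of 0.0517 to 0.233), with a replicate block (0.0508) and by DESeq2 (0.0521).

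Between texAM and tAM edgeR called 0 of the 24, with 3 at an unadjusted p under 0.05 (C2, Itgam and Cd93), and DESeq2 called Itgam and Cd93. Over all tested genes edgeR called 0.00688% in this comparison, and DESeq2 called 62 higher and 11 lower. On unfiltered genes edgeR called 198 higher and 40 lower. Cd93 stood at 132 and 117 CPM in texAM, 64.3 and 56.8 CPM in tAM and 69.1 and 63.3 CPM in HostAM. Both texAM libraries were thus above the other 4 lung libraries, and how many of all tested genes were placed so was not counted. The difference of Cd93 from tAM was 1.04 on the log2 scale (95% interval 0.64 to 1.44, edgeR adjusted p = 0.195). It was called by DESeq2 (adjusted p = 2.99e-06), on unfiltered genes (edgeR adjusted p = 2.5e-14) and without exAM replicate 1 (edgeR adjusted p = 0.0498). Itgam stood at 99.1 and 68.9 CPM in texAM, 47.0 and 47.8 CPM in tAM and 48.9 and 48.9 CPM in HostAM, a difference from tAM of 0.83 (95% interval 0.42 to 1.23, edgeR adjusted p = 0.375), called by DESeq2 (adjusted p = 0.00103) and by edgeR on unfiltered genes (adjusted p = 1.76e-08). Some markers of other cells were also higher in both texAM libraries than in the other 4 lung libraries, with none of those named here called against tAM. Ccr2, a chemokine receptor of monocytes, stood at 68.3 and 50.5 CPM in texAM, 20.5 and 23.6 CPM in tAM and 15.4 and 38.8 CPM in HostAM. S100a9, abundant in neutrophils and monocytes, stood at 64.6 and 25.8 CPM, 8.36 and 7.02 CPM and 5.29 and 14.2 CPM in the same order. The neutrophil gene Retnlg had 40 and 1 counts in texAM and 0 in the other libraries, so nearly all its counts came from texAM replicate 1. Other markers of the same lists did not share this order. Csf3r stood at 130 and 80.2 CPM in texAM, 80.4 and 81.9 CPM in tAM and 139 and 114 CPM in HostAM. Cx3cr1 and Cd14 also overlapped between texAM and HostAM, and Ly6g was at 0. None of the 6 neutrophil and 18 monocyte and other macrophage markers tested was called between texAM and tAM. The 12 neutrophil markers summed to 449 and 311 CPM in texAM and to 255 to 297 CPM in the other lung libraries. The 13 lymphocyte markers summed to 244 and 188 CPM in texAM and to 25.9 to 124 CPM in the other lung libraries. The 20 markers of monocytes and other macrophages summed to 2278 and 2309 CPM in texAM and to 2303 to 2416 CPM in the other lung libraries. Their part in the values of Cd93 and Itgam was not tested.

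Likeness of pattern was measured as the root-mean-square difference of log2 levels, centred on each gene's mean, over the 8 libraries, among 9873 genes of at least 10 CPM in their highest group. Gask1b was nearest to C3ar1, with a difference of 0.276 (the median gene differed by 2.25) and levels of 256 CPM in exAM against 6.83 CPM in tAM. The creatine transporter gene Slc6a8 came next at 0.333. Nearest to C1qa was Tmem52b (0.30), nearest to C1qb was Tesmin (0.273) and nearest to C1qc was the membrane protease gene Mmp14 (0.261). Cfb was nearest to Dennd1c (0.109), Cfp to the integrin gene Itgb5 (0.08), C3 to Nol4l (0.043) and C5ar1 to Akap13 (0.045). All comparisons in this list share the contrast of 2 exAM with 6 lung libraries.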

How the data were processed

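The files hold gene counts of 8 RNA-seq libraries, 2 in each of 4 groups, with totals of 6546272 to 9154128. The authors' deposited values are raw counts per gene. The labels' protocols give amplification of total RNA with the Ovation RNA-seq system V2, and the submitters' processing notes name Bowtie, HTSeq 0.6.1, R 3.3 and the mouse build mm10 (GRCm38). Strand, duplicate and multi-mapping handling are not given in the sources used here. Symbols come from the table, and exon lengths and positions from GENCODE M21, which held 87.4% of the gene identifiers.

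All 8 libraries were fitted together with edgeR 4.0.16 (R 4.3.3, limma 3.58.1), after a filter on expression with a minimum count of 10 and TMM scaling, and groups were compared in 6 pairs with the quasi-likelihood F test. P-values were Benjamini-Hochberg adjusted over 14537 genes with a threshold of 0.05. CPM is counts per 1000000 of the TMM effective library size. Bounds for groups at 0 use 3 counts over the group. The script was tested on simulated data. Alternatives were no filter, a minimum of 50, DESeq2 size factors, library totals, TMM on genes under 0.5 counts per base, a replicate block, DESeq2 1.42.0's Wald test, only the libraries compared, and leaving out each library. Named were the 8 genes, the other complement genes of fixed lists, and the 3 genes most like each member, of which the nearest are given. Some listed genes are not reported here. The members and lists were chosen with earlier results of these data known.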

Additional observations from a re-analysis of the deposited data

How the results depend on the processing

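Of 762 values of the 8 genes under alternative settings, 731 kept their direction and side of the threshold, 7 lost a call, 7 gained one and 17 changed sign, all 17 in comparisons among lung groups that were not called. Without a filter on low counts 1 of the 8 genes, C3ar1, was called higher in texAM than in tAM (0 otherwise). Without one library at a time, 0 to 1 were called higher in texAM than in HostAM, the 1 being C3ar1 without HostAM replicate 2.

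The changed signs were as follows, on the log2 scale. With library totals, C5ar1 was 0.009 in texAM against HostAM and C3 was 0.013 in tAM against HostAM. Apart from C1qa with a replicate block, given below, the others arose on leaving out 1 library, over which these values ranged as follows. In texAM against tAM, C1qa ranged from -1.03 (without texAM replicate 1) to 0.58 (without tAM replicate 1, and 0.42 without texAM replicate 2). There C1qb ranged from -1.21 to 0.26 and Cfb from -0.20 to 0.098, each positive without tAM replicate 2. In texAM against HostAM, C3ar1 ranged from -0.13 (without HostAM replicate 1) to 1.02, C5ar1 from -0.091 to 0.036 (without texAM replicate 1) and C1qa from -0.78 (without texAM replicate 1, and -0.24 without HostAM replicate 1) to 0.67. In tAM against HostAM, C3ar1 ranged from -0.86 to 0.30 and C3 from -0.053 to 0.040, both highest without HostAM replicate 2, and C3 was 0.026 without tAM replicate 1. There C1qa ranged from -0.46 (without tAM replicate 1, and -0.11 without HostAM replicate 1) to 0.74 and Cfp from -0.24 to 0.16 (without HostAM replicate 1). The cause was not tested.

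Matched by replicate number, deviations from the group means correlated between groups at -0.069 to 0.009 over 14537 genes. As each group gives only the difference of its 2 libraries, this cannot show whether libraries were paired. With the replicate number as a block, C1qa was -0.079 in texAM against HostAM, Cfp gained its call in texAM against exAM (0.53, edgeR adjusted p = 0.0274), and the genes called in exAM against tAM went from 3124 higher and 3378 lower to 2924 and 3158. Over all genes, calls among lung groups depended on the tool. Between texAM and tAM they were 1 higher and 0 lower, 198 and 40 without a filter, and 62 and 11 with DESeq2. Between texAM and HostAM they were 36 and 12, 464 and 230 without a filter, and 274 and 111 with DESeq2. Between tAM and HostAM they were 3 and 3, 173 and 252 without a filter, and 71 and 107 with DESeq2. With a minimum of 50 counts C1qa was not tested. Depth limits C1qa, C1qb, C1qc and Cfb in exAM, which rested on at most 12 counts a library.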

Other observations

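Several complement genes had no counts in these libraries. Of 52 other complement genes listed, 28 did not pass the filter on low counts. C7, C8a and C8b of the membrane attack complex, the lectins Mbl1, Mbl2 and Colec10, and the regulators Cfi, C4bp and Vtn had 0 counts in all 8 libraries. Vsig4, the macrophage receptor for cleaved C3, had 19 and 9 counts in tAM and 6 and 6 in texAM, and 0 in both HostAM and both exAM libraries. It was not tested, being under the filter.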
